A study of Sus scrofa with 54 samples.

Results

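The genes described here were 78 of the 25114 pig genes in the count table, chosen because they were abundant in both heart and skeletal muscle and scarce in blood. They were selected on their median level in CPM (a gene's reads per 1000000 counted reads of the sample) in 3 groups of samples: baseline conventional endomyocardial biopsies (EMB), skeletal muscle and blood. Both muscle medians had to be at least 200 CPM, to lie within 4-fold of each other and to be at least 20 times the blood median plus 1. A further 323 genes met the level and fold limits and were left out by the limit on blood, and 15 were left out by the 4-fold limit alone. A symbol was paired with 67 of the 78 identifiers.

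The samples were 54 RNA-seq libraries from 5 adult female Yorkshire-Swedish farm swine, biopsied through a catheter at baseline (day 0) and at follow-up (day 7). Micro-EMB samples, sub-milligram pieces of the heart wall cut with a miniaturized device, numbered 20 at baseline and 12 at follow-up. Conventional EMB samples, taken with a forceps bioptome, numbered 6 at baseline and 4 at follow-up, and 6 skeletal muscle and 6 peripheral blood samples were taken at baseline. All conventional EMB, muscle and blood samples came from pigs 4491 and 4494, and pig 4493 had no follow-up sample. Several biopsies came from each pig, so p-values describe the spread between biopsies of few animals.

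The depth ran from 64216 to 4649613 counted reads per library. The micro-EMB samples 9, 10 and 21, all from baseline, had under 5000 genes at 1 CPM and were left out of group values, which leaves 29. Blood genes (125 genes whose blood median reached 50 CPM and 20 times the median plus 1 of both muscle tissues) held more than 0.6% of the counts in the micro-EMB samples 4, 19 and 44 and in the conventional EMB samples 38, 55 and 3, termed blood-rich here. In samples 4, 38, 55 and 3 the level of ACTB, the cytoplasmic actin of non-muscle cells, was 18884 to 48873 CPM, while in the other heart and muscle samples with at least 5000 genes it was at most 5680 CPM and in the 6 blood samples 2223 to 9503 CPM. Those 4 samples thus held more ACTB than blood itself, and the term blood-rich refers to the 125 genes alone. These genes held 1.85%, 2.24% and 2.50% of counts in conventional EMB samples 38, 55 and 3, against 9.90% to 22.2% in the blood samples. In sample 21, left out, ACTB was at 14451 CPM. Sample 38 was 1 of the 6 baseline and samples 55 and 3 were 2 of the 4 follow-up conventional EMB samples. Genes of a heart muscle list held 7.55% to 12.2% of counts in the other 5 baseline conventional EMB samples and 0.0112% in sample 38. Among follow-up conventional EMB these genes held 10.1% (sample 50) and 8.52% (56), but only 0.905% (3) and 0.0712% (55) where the biopsy was blood-rich. In micro-EMB they held 0.0230% to 14.0% at baseline and 0.0598% to 11.3% at follow-up, so in single samples the label of heart muscle was not met by these markers. A skeletal muscle list held 1.64% to 4.14% in the skeletal muscle samples, and a red blood cell list held 2.90% to 6.56% in blood.

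Heart and skeletal muscle are both striated. Their fibres share the sarcomere, in which actin and myosin filaments slide past each other, the Z-disc and costamere that anchor the filaments to the membrane, and the reticulum that releases and recovers calcium. Around the fibres, both tissues hold capillaries and a matrix of fibrillar collagens, basement membrane laminins and proteoglycans that fibroblasts and vessel cells secrete. In a whole biopsy, fewer cells of a type and less RNA per cell cannot be told apart.

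By role, 18 of the 78 members belong to the contractile apparatus and the cytoskeleton attached to it. They include TPM1 (tropomyosin) and TNNT1 (slow skeletal troponin T) of the thin filament, LMOD2 (leiomodin, which lengthens it), MYOM1 and MYOM2 (myomesins of the M-band), ACTN2 (alpha-actinin of the Z-disc), DES (desmin, the muscle intermediate filament), NEXN, FLNC, TCAP, CSRP3, CMYA5 and DMD (dystrophin). Another 10 serve the membrane, calcium and energy supply, such as HRC and SRL in the sarcoplasmic reticulum, SLC25A4 (the mitochondrial carrier of ADP and ATP), CKMT2 (mitochondrial creatine kinase), PFKM (muscle phosphofructokinase) and the ankyrins ANK1, ANK2 and ANK3. Protein turnover and chaperones had 5 members, among them the muscle ubiquitin ligases TRIM63 and TRIM55 and the small heat shock protein HSPB6. A further 14 belong to the extracellular matrix and the vessel wall, namely COL3A1, COL1A2, COL6A3, FBN1, LAMC1, LAMA4, LAMB1, HSPG2, DCN, SPARC, SPARCL1, CCDC80, PTPRB and ADGRF5. EGR1 and FOS are immediate early transcription factors, and 29 members, of which 11 had no symbol, were not assigned a role. The roles were assigned after the members were known. No member came from the lists of respiratory complexes, ATP synthase, the citric acid cycle or fatty acid use. This absence does not show that such genes were scarce in either muscle tissue. The rule leaves out genes that are also abundant in blood, and 11 members had no symbol. The table held 21 of 38 complex I symbols, 6 of 15 for complex IV and 22 of 26 for fatty acid use.

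The members are thus not all genes of muscle fibres. Of 9 fibroblast and matrix markers in the table, 4 were members, COL1A2, COL3A1, DCN and SPARC. None of the 7 smooth muscle and pericyte markers or the 5 endothelial markers in the table was one. The endothelial list had 9 symbols, and the vessel wall members PTPRB and ADGRF5 are on neither list. A single member, CSRP3 (muscle LIM protein), is on the list of heart muscle markers.

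The levels that chose the members were higher in baseline conventional EMB than in skeletal muscle for 45 of them and lower for 33, and 62 lay within 2-fold. These levels are a description. All 14 matrix and vessel members had the higher median in conventional EMB, with ratios of 1.09 for COL6A3 to 2.96 for LAMA4 and a median of 1.72. Among the contractile members, 12 of 18 had the higher median in skeletal muscle, and the ratio of conventional EMB to muscle ran from 0.316 for TNNT1 to 3.65 for CSRP3. TPM1 had a median of 5923 CPM in conventional EMB and 10860 CPM in muscle, and ACTN2 had 4595 and 4131 CPM. The blood median was 0 for 35 members.

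**Figure D1:**
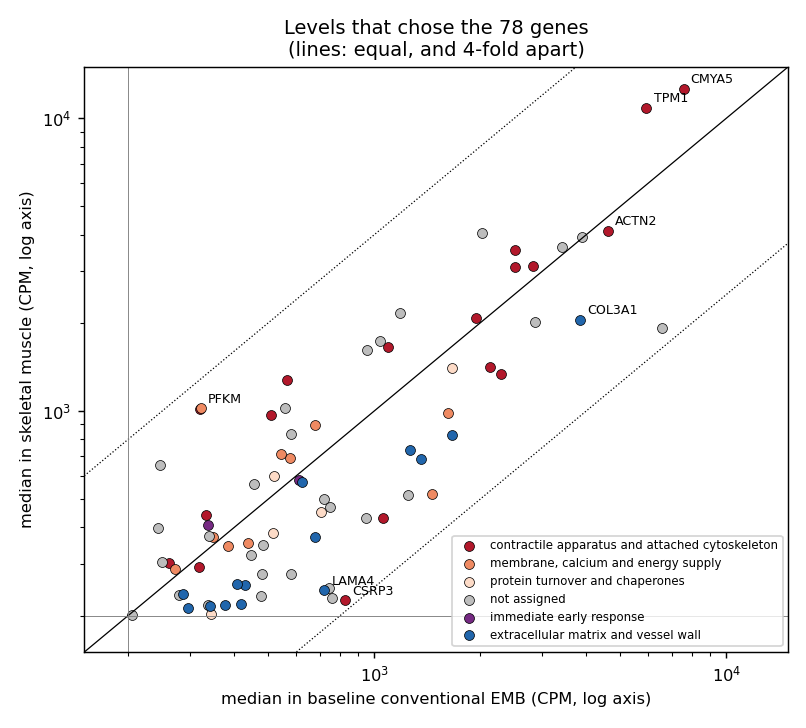
Median CPM of each of the 78 genes in the 6 baseline conventional EMB samples (x, log axis) and the 6 skeletal muscle samples (y, log axis), coloured by role, with lines at equal levels, 4-fold apart and at 200 CPM. All points lie inside the limits that chose them, and the 14 blue points of matrix and vessel genes all lie below the line of equal levels.

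Some genes lay close to the limits. DUSP3, TRIM55 and SPARC had the lowest lower medians inside, at 202, 203 and 213 CPM, and LAMB2 was the nearest gene outside, at 199.9 CPM. CSRP3 and PPFIBP1 were 3.65-fold and 3.31-fold apart and inside. SYNPO2, CACNA2D1 and TNNC1 (a troponin C) were 4.03-fold, 4.17-fold and 4.64-fold apart and outside. ZNF106, PDLIM5 and SH3BGR reached 20.6, 22.0 and 22.5 times the blood level plus 1, and BAG3, MAP4 and SPTB reached 19.7, 18.8 and 18.7 times and were outside.

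Together the members held nearly the same share of the counts in both muscle tissues, in the samples that chose them. The limits on fold and on blood favour near shares in muscle and a low share in blood. The baseline values are therefore a description. The share was 9.93% to 11.1% in 5 baseline conventional EMB samples and 0.977% in the blood-rich sample 38 (95% Wilson interval 0.964% to 0.990%, which covers counting error only). In skeletal muscle it was 9.82% to 10.5% in 5 samples and 6.35% in sample 57. In the 6 blood samples it was 0.0532% to 0.0756%. The follow-up conventional EMB samples had 11.6% (sample 50), 8.45% (56), 1.49% (3) and 0.837% (55), with the 2 blood-rich samples far below the others.

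In micro-EMB, which the choice of members did not use, the share had a median of 10.1% at baseline (range 0.646% to 12.5%, n = 17) and 9.63% at follow-up (range 1.99% to 12.1%, n = 12). All 12 follow-up samples lay within the range of the baseline samples. The lowest shares at each timepoint were those of blood-rich samples, 0.646% in sample 4, 3.53% in sample 19 and 1.99% in sample 44. Without them the medians were 10.6% and 9.76%. Across the 29 samples the share ran opposite to the share of blood genes (Pearson r = -0.86, Spearman rho = -0.69, and r = -0.71 without samples 4 and 44). Over the 26 samples that were not blood-rich r was -0.41 and rho -0.57, but r was -0.75 without samples 26 and 37. At baseline r was -0.89, and -0.39 without samples 4 and 19. The strength of the relation thus moved with single samples. Both shares are parts of the same total in each library. The blood genes held 1.78%, 0.731% and 1.22% of counts in samples 4, 19 and 44, against 9.90% to 22.2% in the blood samples. How far blood accounts for the low member shares was not tested.

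**Figure D2:**
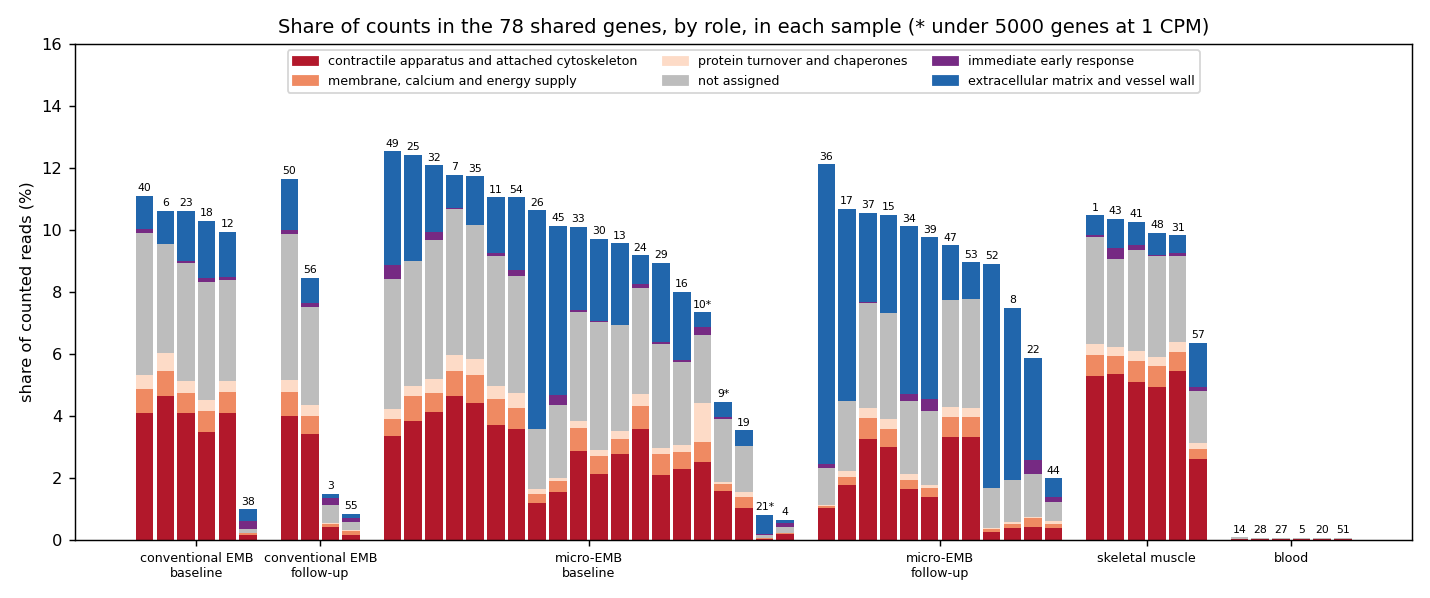
Share of counted reads (%) in the 78 genes in each of the 54 samples, stacked by role and grouped by sample type and timepoint, with the sample number above each bar and an asterisk on the 3 samples under 5000 genes. Total height is near 10% in most muscle samples, low in the blood-rich samples 38, 3, 55, 4 and 44, and in follow-up micro-EMB samples 36, 52, 8 and 22 the matrix and vessel genes make up most of the bar.

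A total near that of conventional EMB did not mean the same composition. The contractile members held a median of 2.87% of counts in baseline micro-EMB (range 0.175% to 4.64%) and 1.51% at follow-up (range 0.248% to 3.30%). The matrix and vessel members held 2.33% (range 0.113% to 7.06%) and 4.26% (range 0.613% to 9.68%). In conventional EMB at baseline the medians were 4.09% and 1.27%, and in skeletal muscle they were 5.18% and 0.725%. Of the 12 follow-up micro-EMB samples, 8 lay below the baseline median for contractile members and 9 above it for matrix members. The ranges overlapped in both cases.

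The composition stood furthest from that of conventional EMB in follow-up samples 8, 22, 36 and 52, from 4 pigs. Their totals were 7.49%, 5.86%, 12.1% and 8.91%. The matrix and vessel members alone held 5.56%, 3.29%, 9.68% and 7.23%, and the contractile members 0.372%, 0.421%, 1.01% and 0.248%. Matrix members held more counts than contractile members in 9 of the 12 follow-up samples and in 5 of the 17 baseline samples. At baseline the widest gaps were in sample 26 (7.06% against 1.20%) and sample 45 (5.44% against 1.53%). Among the 5 baseline conventional EMB samples that were not blood-rich, contractile members held 1.88 to 4.38 times the counts of matrix members.

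Within pigs, the median contractile share was lower at follow-up than at baseline in pigs 4494, 4664 and 4665, at 0.421% against 1.66%, 1.77% against 3.71% and 3.30% against 3.56%. In pig 4491 it was 1.64% at follow-up and 1.23% at baseline, where 1 of the 2 samples was the blood-rich sample 4. Pig 4494 had blood-rich samples at both timepoints, sample 19 of 4 at baseline (1.03%) and sample 44 of 3 at follow-up (0.394%). The median matrix share was higher at follow-up in pigs 4491, 4494 and 4664 and lower in pig 4665 (1.75% against 2.64%). Each of these medians rests on 2 to 5 biopsies.

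As a measure of muscle content, the total and its parts gave different answers. A set of 50 heart-enriched genes, with medians at least 200 CPM in baseline conventional EMB, over 4 times the skeletal muscle median plus 1 and at least 20 times the blood median plus 1, shares no gene with the members. Across the 29 micro-EMB samples the contractile share followed the share of these genes closely (r = 0.97, rho = 0.96, and r = 0.96 without samples 4 and 52). It did so at baseline alone (r = 0.96, n = 17) and without the blood-rich samples (r = 0.96, n = 26). The total of all members followed it less (r = 0.59, rho = 0.51). The summed matrix share ran the other way (r = -0.48, rho = -0.41), and more so over the 26 samples that were not blood-rich (r = -0.84, rho = -0.83). Its members did not each do so. On log2 scales over the 29 samples, r with the heart-enriched share was 0.73 for PTPRB, 0.71 for LAMC1 and 0.67 for LAMA4. For COL3A1 it was 0.12, and only COL1A2 (-0.032) and SPARC (-0.10) lay below 0. The heart-enriched genes held 2.36%, 2.89%, 1.83% and 1.53% of counts in samples 8, 22, 36 and 52, against a baseline micro-EMB median of 14.3% (range 0.298% to 21.7%). In the same samples the heart muscle list held 1.35%, 1.41%, 0.0598% and 0.656%. By that list sample 36 was the lowest of these samples, while its contractile share of 1.01% was the highest of them. The heart-enriched genes were chosen on the same groups of samples as the members. These correlations are descriptive, since all shares come from 1 library and 1 total per sample.

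**Figure D3:**
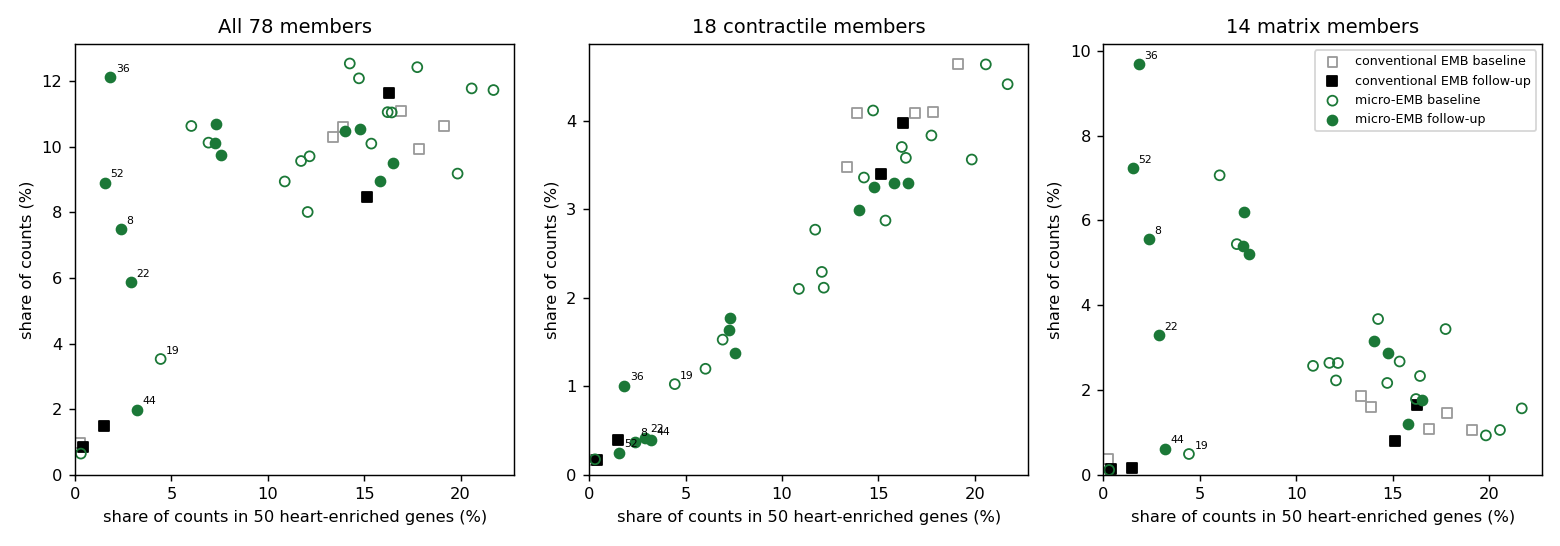
Share of counts (%) in all 78 members, in the 18 contractile members and in the 14 matrix and vessel members (y, 3 panels) against the share of counts in 50 heart-enriched genes (x, %), one point per EMB sample with at least 5000 genes (squares conventional, circles micro-EMB, filled at follow-up). Contractile share increases with heart-enriched share along one line, while samples 8, 22, 36 and 52 combine under 3% in heart-enriched genes with totals of 5.86% to 12.1%, carried by the matrix members.

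Whether the members differed between timepoints in micro-EMB was tested with edgeR's quasi-likelihood test over 10029 genes, with pig as a covariate. None of the 78 members, all of which were tested, had a Benjamini-Hochberg adjusted p under 0.05 and a log2 fold change past 1. Over all genes 1 gene was called higher (0.00997%) and 0 were called lower (0.0%), and DESeq2 called 17 genes higher and 1 lower with 0 members among them. At an unadjusted p under 0.05, 4 members were higher (over all genes 3.18%) and 2 were lower (over all genes 0.588%). The median log2 fold change was -0.50 over members and 0.09 over all genes tested, and it was -0.60 over the heart-enriched genes. Of all 10029 genes, 5703 were fitted above 0 and 4326 below, and of the 78 members 18 above and 60 below. Without samples 8, 22, 36 and 52 the members' median was -0.10. The gene called was POSTN (periostin, a matrix protein of fibroblasts and no member), with a log2 fold change of 3.33 (SE 0.61, adjusted p = 0.047 by edgeR). The call was lost in 8 of 16 alternatives, among them RLE normalization (adjusted p = 0.057 by edgeR), leaving out pig 4493 (adjusted p = 0.12 by edgeR) and leaving out samples 8, 22, 36 and 52, where the log2 fold change was 1.92.

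All 18 contractile members had a fitted log2 fold change below 0, with a median of -0.56, and 0 of them had an unadjusted p under 0.05 by edgeR. ACTN2 was at 6.77, 3474 and 6594 CPM (lowest, median and highest) in baseline micro-EMB and at 14.9, 1846 and 4590 CPM at follow-up. The timepoints overlapped across almost their whole range, and the log2 fold change of -0.71 (SE 0.62) did not pass the test (adjusted p = 0.9996 by edgeR, shared by all members in this comparison). DES was at 2.26, 2106 and 3956 CPM at baseline and at 159.8, 1109 and 3470 CPM at follow-up, with a log2 fold change of -0.50 (SE 0.52). Without samples 8, 22, 36 and 52 it was 0.0071. Those samples were chosen after seeing the data and all had contractile shares below the follow-up median. Leaving them out thus moves a contractile gene upward, and the change cannot show what the direction of DES rested on.

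CMYA5 (myospryn, a large Z-disc and costamere protein) was at 56.4, 4508 and 10372 CPM at baseline and at 28.7, 1628 and 6591 CPM at follow-up. Its log2 fold change was -0.76 (SE 0.63). TPM1 was at 808, 3903 and 8317 CPM and then at 429, 2218 and 5825 CPM. The log2 fold change of TPM1 was -0.57 (SE 0.43). The differences of these genes were smaller than about 1.5 times their standard errors. In sample 36, LMOD2 was at 0.373 CPM and ACTN2 at 14.9 CPM while TPM1, which is also made outside striated muscle, was at 2595 CPM.

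Members of the energy and calcium group had the same direction for 8 of 10, with a median of -0.66. SLC25A4 was at 29.3, 1017 and 1820 CPM at baseline and at 8.21, 397 and 1349 CPM at follow-up (log2 fold change -0.66, SE 0.56). HRC, which binds calcium in the reticulum, was at 11.3, 736 and 1691 CPM and then at 9.32, 354 and 1101 CPM (log2 fold change -0.43, SE 0.48, and 0.035 without samples 8, 22, 36 and 52). All 5 members of protein turnover had negative values. TRIM63, a ligase that marks sarcomere proteins for breakdown, was at 0, 708 and 1443 CPM and then at 0.373, 250.0 and 882 CPM (log2 fold change -0.93, SE 0.67). None of these passed the test. The baseline value of 0 was in the blood-rich sample 4, where 3 counts would have been 6.77 CPM.

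The matrix and vessel members ran the other way, with 13 of 14 fitted above 0 and a median of 0.41. By edgeR, 4 had an unadjusted p under 0.05. The fit was close to 0 for LAMC1 (0.0068), ADGRF5 (0.016) and DCN (0.090). In CPM the median was higher at follow-up for 10 of the 14 and lower for 4. COL3A1, the chain of type III collagen, was at 296, 7825 and 28689 CPM in baseline micro-EMB and at 1321, 15187.5 and 50291 CPM at follow-up. In baseline conventional EMB it was at 1784, 3847 and 6709 CPM, and the baseline micro-EMB median was already above all 6 of those samples. Its log2 fold change between timepoints was 1.24 (SE 0.61). COL1A2, a chain of type I collagen, was at 253, 3799 and 16539 CPM and then at 1210, 9679 and 19868 CPM.

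The 3 members of smallest unadjusted p were all of this group. They were SPARC, a collagen-binding secreted protein (log2 fold change 1.38, SE 0.48, unadjusted p = 0.00726 by edgeR), LAMB1 (laminin beta 1; 0.90, SE 0.34, unadjusted p = 0.0119 by edgeR) and COL6A3 (a chain of type VI collagen; 1.19, SE 0.51, unadjusted p = 0.0269 by edgeR). SPARC was at 63.3, 547 and 2257 CPM at baseline and at 117, 1362 and 3178 CPM at follow-up. LAMB1 was at 24.8, 365 and 733 CPM and then at 162, 575 and 1222 CPM. COL6A3 was at 122, 1408 and 3987 CPM and then at 291, 2657 and 11010 CPM. For each of them the ranges overlapped and the adjusted p was 0.9996. Without samples 8, 22, 36 and 52 and under every other alternative tried, these 3 kept a positive sign, from 0.46 to 1.67. LAMC1 (laminin gamma 1) was at 1374 CPM at baseline and 1235 CPM at follow-up in the median, with a log2 fold change of 0.0068 (SE 0.32) whose sign changed with the processing.

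**Figure D4:**
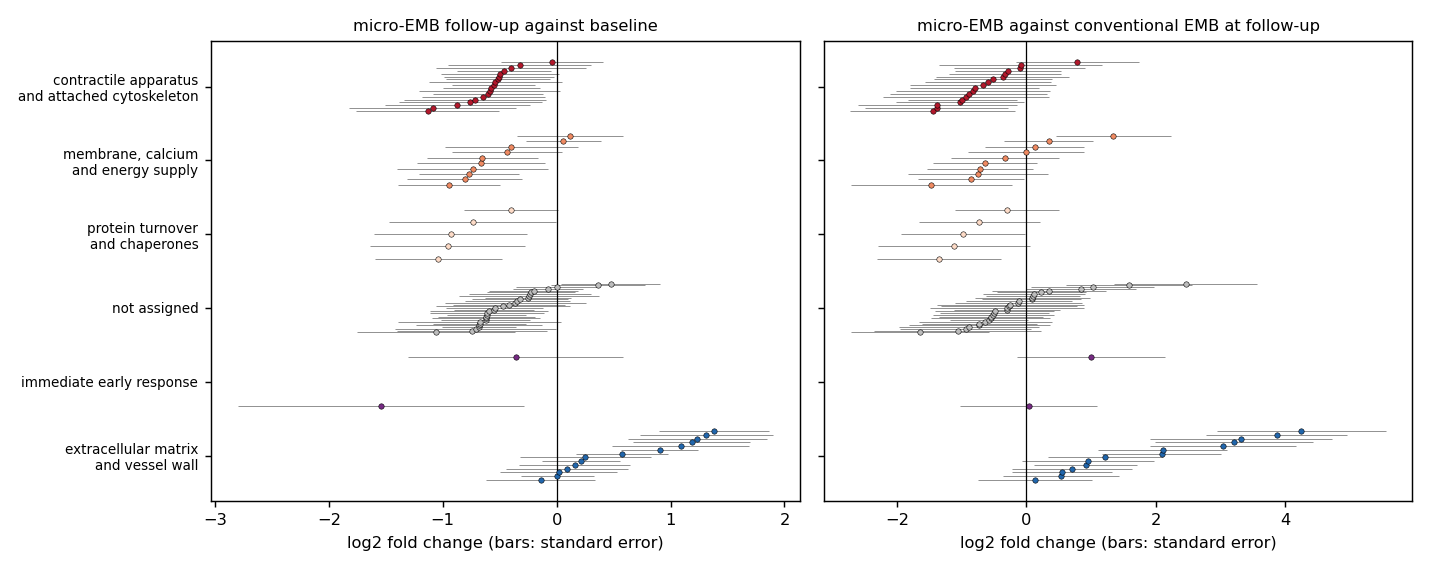
Fitted log2 fold change of each of the 78 genes (points, with standard error bars) by role in the 2 edgeR comparisons, micro-EMB follow-up against baseline on the left and micro-EMB against conventional EMB at follow-up on the right. The 18 contractile genes lie left of 0 in the first comparison and 17 of 18 in the second, while matrix and vessel genes lie mostly right of 0, and no gene passed the adjusted threshold in either.

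Immediate early genes, which cells switch on within minutes of a stimulus, varied widely between samples at both timepoints. EGR1 had a median of 330 CPM at baseline (range 27.7 to 2159) and of 92.7 CPM at follow-up, where the highest sample had 1939. FOS was at 8.94, 271 and 2255 CPM and then at 1.70, 68.4 and 2692 CPM. The log2 fold change was -0.36 (SE 0.94) for EGR1 and -1.54 (SE 1.26) for FOS, and without pig as a covariate both turned, to 0.20 and 0.39. Their combined share of counts was 0.0037% to 0.441% at baseline and 0.0020% to 0.457% at follow-up.

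**Figure D5:**
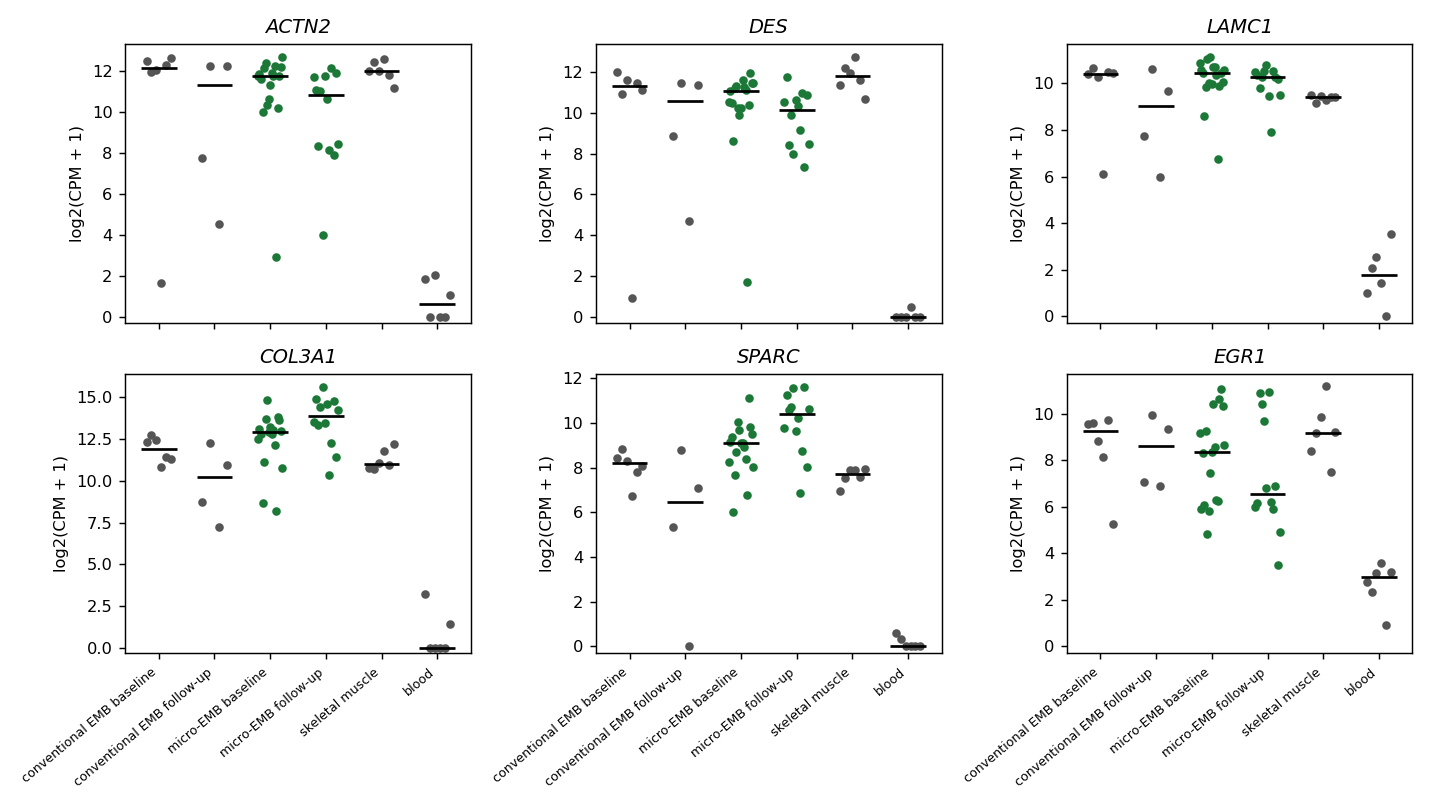
Level of 6 members, as log2(CPM + 1), in each sample with at least 5000 genes, by group (points; the bar is the median; micro-EMB green). ACTN2 and DES spread down to blood-rich and matrix-rich samples, LAMC1 stays within a narrow band in most muscle samples, and the medians of COL3A1 and SPARC in micro-EMB lie above those of conventional EMB.

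Other genes of the same pathways, from lists of muscle functions, were measured alongside. Of 142 tested list genes that were not members, 0 passed the test in either direction by edgeR or DESeq2. Of these, 121 were fitted below 0 (over all genes 4326 of 10029) with a median of -0.49, and 2 had an unadjusted p under 0.05, both lower. The 23 members on these lists were all fitted below 0, with a median of -0.61. Of 5 fibroblast and matrix markers that were not members, 1 (POSTN) was called higher, all 5 were fitted above 0 and their median was 1.36. The 7 heart muscle markers that were not members had a median of -0.51, with 0 calls by edgeR or DESeq2 and 0 at an unadjusted p under 0.05. Marker lists of other cells had 0 calls by edgeR or DESeq2, and 1 smooth muscle gene was higher at an unadjusted p under 0.05. Their medians were -0.19 for 5 endothelial, 0.74 for 6 smooth muscle and pericyte, 0.41 for 4 macrophage and 0.87 for 3 white blood cell genes. The part of these cells in the members' values was not tested.

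Members differed widely in how steady they were. Across the 17 baseline micro-EMB samples the coefficient of variation of CPM was lowest for DST (dystonin, a cytoskeletal linker) at 38.2%, and SAMD4A was also low at 40.6%. It was highest for FBN1 (fibrillin) at 146%, FOS at 122% and CCDC80 at 117%. FBN1 ran from 22.6 CPM to 12731 CPM around a median of 1347 CPM. DST was at 169, 5618 and 7986 CPM at baseline and at 1717, 4429 and 6449 CPM at follow-up.

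The members whose log2 CPM followed the total of the other members most closely over the 29 micro-EMB samples were LAMC1 with r = 0.92, LAMA4 (a laminin of the vessel wall) with r = 0.90 and VLDLR (a lipoprotein receptor, without an assigned role) with r = 0.90. By role the values overlapped widely, with a median of 0.61 for matrix and vessel members (0.38 to 0.92) and of 0.58 for contractile members (0.40 to 0.85). Among the most abundant contractile members DES had r = 0.80, ACTN2 r = 0.64 and CMYA5 r = 0.54. Set against the share of heart-enriched genes instead, ACTN2 had r = 0.95, DES r = 0.93 and CMYA5 r = 0.93, and LAMC1 had r = 0.71. Among 3194 compared genes that were no members, FBLN5 (fibulin 5, of elastic fibres) with r = 0.90, APP with r = 0.88 and GJA1 (connexin 43) with r = 0.87 followed the member share most closely. All of these values come from the same libraries and use log2 shares, unlike the correlations between shares above. Samples 4, 19 and 44, with the lowest member shares of the 29, were kept in, and values without them were not computed.

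At follow-up, micro-EMB was compared with conventional EMB in pigs 4491 and 4494, the 2 animals with both, on 6 and 4 samples. By edgeR, 0 of 78 members passed in either direction, and 0 of 10706 genes did (0.0%). DESeq2 called 3 members higher in micro-EMB (COL1A2, COL3A1 and CCDC80) and 0 lower, among 45 genes higher and 97 lower. At an unadjusted p under 0.05, 7 members were higher (over all genes 3.92%) and 0 were lower (over all genes 1.97%). Of the 4 conventional EMB samples, samples 55 and 3 were blood-rich, and sample 3 had 74767 counted reads. The heart muscle list held little of their counts (0.0712% and 0.905%).

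The members with the smallest p were matrix genes. CCDC80, a secreted matrix protein, was at 1578, 4870, 3954, 2763, 1649 and 560 CPM in micro-EMB samples 15, 34, 8, 22, 39 and 44 and at 402, 244, 50.2 and 13.4 CPM in conventional EMB samples 50, 56, 55 and 3. The groups did not overlap, and CCDC80 was the 1 member of 78 for which all micro-EMB samples were the higher (over all 10706 genes 0.682%). For 0 members were all of them the lower (over all genes 0.654%). The log2 fold change of CCDC80 was 3.87 (SE 1.09, adjusted p = 0.584 by edgeR). COL1A2 was at 4485, 9880, 19868, 9479, 14538 and 1314 CPM in the same micro-EMB samples and at 1383, 797, 94.1 and 201 CPM in conventional EMB. Here sample 44, which was blood-rich, lay below sample 50, and the log2 fold change was 4.25 (SE 1.30, adjusted p = 0.625 by edgeR). COL6A3 had a log2 fold change of 3.03 (SE 1.13, adjusted p = 0.707 by edgeR). All 14 matrix and vessel members were fitted higher in micro-EMB, with a median of 1.65. Over all 10706 genes, 5992 were fitted higher and 4714 lower.

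Of the contractile members, 17 of 18 were fitted lower in micro-EMB, with a median of -0.74. ACTN2 was at 3376, 2122, 345, 320, 1570 and 283 CPM in those micro-EMB samples and at 4828, 4849, 21.9 and 214 CPM in conventional EMB samples 50, 56, 55 and 3. The conventional samples fell into a pair above and a pair below all micro-EMB samples, and the log2 fold change of -0.83 (SE 1.19) was smaller than its standard error. Leaving out conventional EMB sample 50 turned it to 0.51. The median of all members was -0.30, against 0.14 over all genes. It moved to 0.85 without sample 50, and the other way to -0.96 without the blood-rich samples and to -1.14 and -0.99 with the smaller or wider set of blood genes as a covariate. The 3 red blood cell markers tested were lower in micro-EMB at an unadjusted p under 0.05, with a median log2 fold change of -4.46, 0 calls by edgeR and 2 by DESeq2. The part of blood in these values was not tested.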

How the data were processed

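RNA-seq was made with a stranded total RNA kit. The authors trimmed the reads (Trim Galore), mapped them to Sscrofa10.2 (STAR) and assigned them to genes (featureCounts). They deposited the raw count of every gene in each library, not normalized. Versions are not given in the sources used here. Ribosomal and mitochondrial genes had been removed by the authors. Between 64216 and 4649613 reads were counted per sample. Symbols came from a table that named 11791 of 25114 identifiers.

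Shares were computed as counts in a set over all counts, with 95% Wilson intervals. Differences were tested with edgeR 4.0.16 (TMM, filterByExpr, quasi-likelihood test) with pig as covariate, in samples with at least 5000 genes at 1 CPM, with Benjamini-Hochberg adjustment over all genes. A call needed an adjusted p under 0.05 and a log2 fold change past 1. The alternative was DESeq2 1.42.0. The pipeline was tested on simulated data. The members, lists and tests were chosen with earlier results of these data known, and the roles after the members were seen. Named were the 10 members of highest mean of the 2 medians, the first 2 of each function list, the 3 of smallest p in each comparison (ties of adjusted p broken by the unadjusted p), the extremes of variation, of likeness and of each limit; others were named after their values were seen. Identifiers without a symbol were not named. No sequence was used here.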

Additional observations from a re-analysis of the deposited data

Results flagged for a closer look

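In the conventional EMB and skeletal muscle groups, of 4 or 6 samples each, 60 sets of values were searched for a sample far from the others. Of these sets, 14 had one. The sets share samples and genes, and most of these samples also chose the members, so the count cannot be set against a chance rate. Of these, 8 were conventional EMB sample 38 at baseline, a blood-rich sample. It had a member share of 0.977% (nearest other sample 9.93%), a contractile share of 0.166% (3.48%) and a heart-enriched share of 0.252% (13.4%). In the same sample TPM1 was at 910 CPM (5728), LAMC1 at 68.7 CPM (1222) and FOS at 2267 CPM (478). SLC25A4 and TRIM63 were at 0 CPM (1402 and 649), where 3 counts would have been 1.34 CPM.

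Another 5 were skeletal muscle sample 57. Its member share was 6.35% (nearest other sample 9.82%) and its contractile share 2.605% (4.94%). TPM1 was at 4790 CPM (9573), while CCDC80 was at 822 CPM (313) and FBN1 at 1731 CPM (426), both above the other muscle samples. In skeletal muscle sample 43, EGR1 was at 2362 CPM (next 924).

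Outside the compared samples, micro-EMB sample 10, which had too few genes to be used, held 19.4% of its counts in genes enriched in skeletal muscle, against at most 2.52% in the other 31 micro-EMB samples.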

How the results depend on the processing

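Members called between timepoints numbered 0 under all alternatives run, while over all genes the calls ran from 0 to 17 higher and 1 lower (DESeq2), with 16 higher without a filter on low counts. Their median log2 fold change kept its sign, at -0.23 with the share of blood genes as a covariate, -0.26 over all 32 micro-EMB samples and -0.10 without samples 8, 22, 36 and 52, and leaving out each pig gave -0.75 to -0.35. The fold change of DES without those 4 samples was 0.0071. Against conventional EMB, DESeq2 called 3 members higher and edgeR without a filter on low counts called 5, namely COL1A2, COL3A1, CCDC80, COL6A3 and SPARC. The median there was -0.96 without blood-rich samples, -1.14 and -0.99 with the smaller or wider set of blood genes as a covariate, and -0.51 with RLE normalization and -0.51 with DESeq2. Leaving out each conventional EMB sample in turn moved it from -0.81 to 0.85, ACTN2 from -1.33 to 0.51, CMYA5 from -1.56 to 1.13, DES from -1.05 to 0.18 and TPM1 from -1.38 to 0.025, and the positive values came without sample 50 or, for DES, also without sample 56. The cause was not tested. Without the 10 members of most counts the shares were 5.69% and 4.57%.

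Between timepoints, other genes also changed sign under single alternatives. Without samples 8, 22, 36 and 52, CSRP3 was at 0.0043, HRC at 0.035 and DCN at -0.049. DCN, at 0.090 with all choices as planned, was at -0.14 without blood-rich samples, -0.46 without samples under 1000000 reads and -0.19 with counts summed per pig, and FBN1 was at -0.26 without samples under 1000000 reads. LAMC1, close to 0, was at -0.18 without blood-rich samples, -0.039 with the smaller set of blood genes as a covariate, -0.15 without pig, -0.050 with RLE, -0.051 with DESeq2, -0.0064 without a filter, -0.20 without samples under 1000000 reads and -0.21 with counts summed per pig. Without pig, EGR1 was at 0.20 and FOS at 0.39. Leaving out each pig moved DCN from -0.28 to 0.47, EGR1 from -1.68 to 0.67, FBN1 from -0.089 to 0.69 and LAMC1 from -0.16 to 0.076. Against conventional EMB, EGR1 was at -0.51 with the wider blood set as a covariate, FOS at -0.42 with RLE and -0.42 with DESeq2, and LAMC1 at -0.12 without blood-rich samples and -0.19 with the wider blood set. HRC was there at -0.58 without blood-rich samples, -0.93 and -0.43 with the smaller and wider blood sets, -0.071 with RLE and -0.070 with DESeq2. Leaving out each conventional EMB sample moved ANK3 from -1.25 to 0.047, FOS from -0.72 to 0.23, HRC from -0.23 to 0.75, LAMC1 from -0.0087 to 1.65, SLC25A4 from -1.28 to 0.78 and TRIM63 from -1.16 to 0.10. The cause was not tested.

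The planned limit on blood, 0.1% of counts in 7 genes, left out 0 samples. It lay above the 0.0555% to 0.0751% that these genes held in the blood samples themselves. The wider set of 125 genes was chosen after seeing the data, as was leaving out samples 8, 22, 36 and 52. Replicate numbers pair no samples, and pig, a covariate in both comparisons, ties samples of the same animal. Without pig as a covariate the medians of members were -0.66 between timepoints and -0.26 against conventional EMB, and with counts summed per pig and timepoint the first was -0.56, with 0 members called in each. Depth limits the low values, with 74767 reads in conventional EMB sample 3.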
